A study of Mus musculus with 12 samples.

Results

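The genes described here were 10 astrocyte marker genes, measured by RNA sequencing in cultures of oligodendrocyte precursor cells (OPCs), the dividing glial cells that give rise to myelinating oligodendrocytes. The members were chosen by symbol, with earlier results of these libraries known, and all 10 were present among the 45563 gene symbols used. The OPCs were isolated with anti-PDGFRα beads from cortices of C57BL/6J (wild type, WT) pups and of pups with a germline deletion of TNFR2 (TNFR2-/-), the receptor encoded by *Tnfrsf1b*. The methods give the age as postnatal days 3 to 5 and the labels as days 2 to 5. After 3 days in vitro in medium with PDGF-AA and FGF2, which every group received, cultures were given the PBS vehicle (non-stimulated, NS) or TNF, IFNγ and IL1β at 25 ng/mL each for 3 h (stimulated, St). Each combination of genotype and condition had 3 libraries (4 groups, 12 libraries), numbered 2, 3 and 4 for WT and 2, 4 and 5 for TNFR2-/-. Nothing in the labels says whether a number is an animal or a pool of animals. Errors of the genotype differences thus measure the spread between these cultures. Errors of stimulation changes fitted with the culture as a block measure the spread of the changes within cultures. Cells positive for PDGFRα at isolation can later change in culture, and the RNA is that of the whole well.

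Astrocytes take up glutamate and potassium from the extracellular space, pass water and small molecules through channels and gap junctions, and carry an intermediate filament skeleton that grows when they become reactive. Most genes used to recognize them are shared to some degree with OPCs or radial glia, from which both cell types descend. *Gfap* encodes the filament protein of mature and reactive astrocytes, and *Aqp4* the water channel of their endfeet. *Gja1* encodes connexin 43, the main astrocyte gap junction protein. *S100b* encodes a calcium-binding protein that maturing oligodendrocyte lineage cells also make. *Slc1a2* and *Slc1a3* encode the glutamate transporters GLT-1 and GLAST, and *Glul* encodes glutamine synthetase, which turns the glutamate taken up into glutamine. *Aldh1l1* encodes a dehydrogenase of folate metabolism, *Aldoc* encodes aldolase C of glycolysis, and *Clu* encodes clusterin, a secreted chaperone.

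Values are FPKM (fragments per kilobase and per 1000000 mapped reads) as deposited. Whole reads could be recovered from them, and libraries held 26886878 to 30335265 read pairs. NS and St libraries were deposited in separate tables, but 1 divisor per gene gave whole reads in every library of both, so levels are compared across them. *Tnfrsf1b* had 12 to 24 read pairs in WT NS against 213 to 346 where the label was TNFR2-/- NS, and 61 to 145 in WT St against 282 to 356 where it was TNFR2-/- St. The gene named as deleted was therefore counted at higher levels in the libraries labelled TNFR2-/-, and whole-gene counts do not show which exons the reads came from. The names WT and TNFR2-/- below stand for the labels only. The summed level of 12 OPC markers was 7999 to 11050.5 RPM (recovered reads per 1000000 read pairs of the library) over the 12 libraries. *Ptprz1* gave the most reads of these, at 109883 to 138599 read pairs per library. No library of another cell type was at hand, so this sum does not tell OPCs from astrocytes. *Pdgfra* itself had 8000 to 20680 read pairs per library. In both conditions, TNFR2-/- culture 5 stood apart from the other cultures in several of the 10 markers. Genotype fits of several markers, and counts over the list, are given with and without it. Fits with the culture as a block were made over all 12 libraries only.

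The start regions of *Gfap* and *Slc1a3* are shown because *Gfap* had the widest range of all 10 markers between cultures and *Slc1a3* had the most reads among those with a match. Each is 300 bases on GRCm38.p6 from RefSeq, from 250 bases before to 50 bases after a gene start as RefSeq places it, read 5′ to 3′ on the gene's strand. *Gfap* lies at chr11:102897151-102897450 and *Slc1a3* at chr15:8710758-8711057, both on the minus strand. The RefSeq start of *Gfap* lies inside the longer span that GENCODE gives the gene. Capitals mark TTCNNNGAA, the palindrome that STAT factors can bind, and STAT3 is known as a driver of *Gfap* transcription.
Gfap: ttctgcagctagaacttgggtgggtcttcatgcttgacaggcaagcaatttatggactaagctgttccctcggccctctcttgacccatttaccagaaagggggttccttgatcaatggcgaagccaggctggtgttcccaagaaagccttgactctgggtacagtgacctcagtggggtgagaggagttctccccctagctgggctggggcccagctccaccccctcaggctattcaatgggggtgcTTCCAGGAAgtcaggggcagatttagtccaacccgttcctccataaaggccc
Slc1a3: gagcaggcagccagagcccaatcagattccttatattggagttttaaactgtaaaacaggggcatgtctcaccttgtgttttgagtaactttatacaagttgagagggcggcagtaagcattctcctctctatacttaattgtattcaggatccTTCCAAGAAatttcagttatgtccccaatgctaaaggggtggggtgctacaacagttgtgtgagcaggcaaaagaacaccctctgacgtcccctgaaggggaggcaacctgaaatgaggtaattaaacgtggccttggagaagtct

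The match in *Gfap* began 2 bases before the start and ran across it, and that in *Slc1a3* began 96 bases before the start. Windows of 8 of the 10 markers were searched (9 windows, 2 of them for *Aldoc*). No window was given for *Clu*, and marker windows on chr18, where *Aqp4* lies, were left out of the search. Of the 9, 3 held TTCNNNGAA, namely *Gfap*, *Slc1a3* and the *Aldoc* window at chr11:78323948-78324247 on the plus strand, which held 2 matches. Of all 32851 windows, 8.3% held it. A loose frame of the NF-kappaB site, which also matches many other sequences, was in 3 of the 9 (*Aldh1l1*, *Aldoc* and *Gfap*) and in 50.8% of all windows. CANNTG, the E-box, was in 7 of the 9 and in 72.3% of all windows, and the NFI palindrome was in 0 of the 9 and in 0.0365% of all windows. Both strands were searched, and a match is a run of letters, not evidence of binding.

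Levels differed widely among the 10 markers. Because the bases by which the deposited values were divided bore no relation to gene length, levels of different genes are compared only as RPM per kilobase of annotated exon. On that scale the order in WT NS was *Glul* (164 ± 18.6, mean ± SD, n = 3), *Slc1a3* (137 ± 11), *Aldoc* (88.1 ± 3.3), *Clu* (36.9 ± 9.90), *Aldh1l1* (27.7 ± 7.43), *S100b* (27.6 ± 5.56), *Slc1a2* (20.4 ± 3.37), *Gja1* (9.94 ± 1.80), *Aqp4* (8.93 ± 2.80) and *Gfap* (3.61 ± 1.22). The 3 most abundant did not overlap each other or the next gene in any of the 3 WT NS libraries. From *Clu* to *Slc1a2*, and between *Gja1* and *Aqp4*, neighbors in the order overlapped, and *Gfap* lay below all others. Among 16583 protein-coding genes, 98.8% were below *Glul* in WT NS, 98.5% below *Slc1a3* and 52.5% below *Gfap*. In the libraries labelled TNFR2-/- NS, *Gfap* averaged 32.5 ± 42.9 on the same scale and had passed *Aqp4* and *Gja1* in the order of means, and its range overlapped those of *Slc1a2* and *Aqp4*. That change of place rested on culture 5, where *Gfap* was at 81.99. In cultures 2 and 4 *Gfap* stayed the lowest of the 10 markers. It reached 8.395 in the higher of these, culture 4, where *Aqp4* was at 14.99 and *Gja1* at 15.63. The markers together took 2584 to 3004 RPM in WT NS and 2478 to 2646 in WT St. They took 3630, 4070 and 6231 RPM in TNFR2-/- NS cultures 4, 2 and 5, and 3774, 3855 and 5945 in the corresponding St libraries, so that no library labelled TNFR2-/- overlapped a WT library. In such whole-well RNA, fewer cells of a type and less RNA per cell cannot be told apart.

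**Figure D1:**
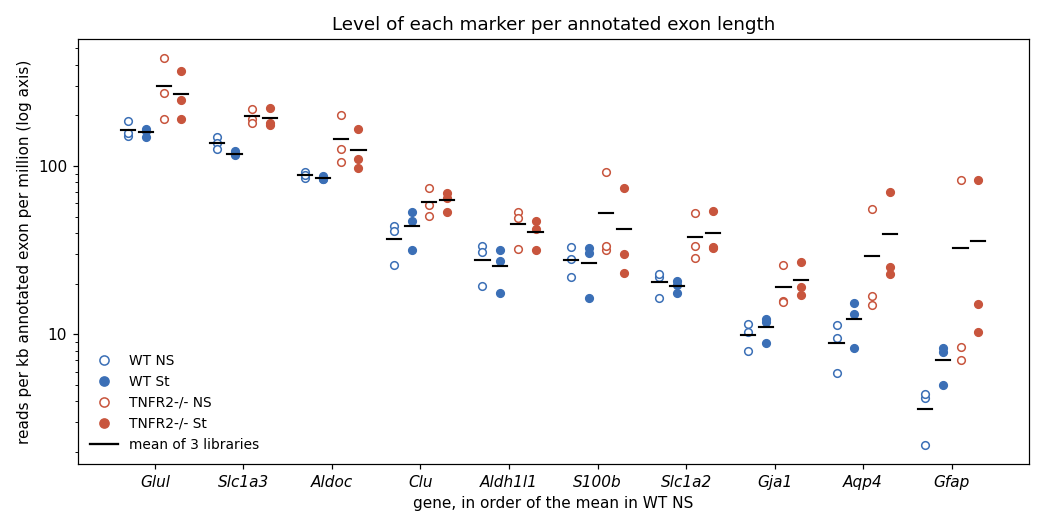
RPM per kilobase of annotated exon (log axis) for each marker, in order of the WT NS mean, with 1 point per library, open for NS and filled for St, and a bar at the mean of 3 libraries. *Glul*, *Slc1a3* and *Aldoc* lie highest and *Gfap* lowest in WT, and the means of the libraries labelled TNFR2-/- lie above the WT means for every marker.

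*Gfap* (chr11:102887336-102900912, minus strand, GRCm38, as for all positions below) was the marker of widest range. It was at 11.8, 6.23 and 12.5 FPKM in WT NS cultures 2, 3 and 4, and at 23.3, 14.1 and 22.2 FPKM in the same cultures after stimulation. In TNFR2-/- cultures 2, 4 and 5 it was at 19.7, 23.6 and 231 FPKM in NS and at 28.9, 42.5 and 233 FPKM in St. Every library labelled TNFR2-/- lay above every WT library of the same condition, and culture 5 lay far above all others in both. Culture 5 was 10.7-fold above the mean of cultures 2 and 4 in NS and 6.52-fold above it in St, whereas cultures 2 and 4 averaged 2.13-fold and 1.80-fold above the WT mean. The fitted difference on the log2(FPKM + 0.5) scale was 2.24 ± 0.93 (SE) in NS (adjusted p = 0.138) and 1.74 ± 0.93 in St (adjusted p = 0.259), neither past the threshold. Without culture 5 the difference in NS was 1.11 ± 0.33 (adjusted p = 0.0809) and that in St 0.84 ± 0.33 (adjusted p = 0.171). By voom on recovered reads without culture 5, *Gfap* passed in NS (1.13 ± 0.30, adjusted p = 0.0471) and not in St (0.85 ± 0.26, adjusted p = 0.0777). At most 10491 read pairs stood behind these values.

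The response of *Gfap* to cytokines was compared within cultures, since same-numbered NS and St libraries of a genotype varied together. *Gfap* was higher in St than in NS by 1.97-, 2.26- and 1.78-fold in WT cultures 2, 3 and 4. In TNFR2-/- cultures 2, 4 and 5 the ratios were 1.47, 1.80 and 1.01, so culture 5, already the highest, showed nearly no change. All WT St libraries lay above all WT NS libraries. Across groups the WT difference was 0.96 ± 0.93 on the log2(FPKM + 0.5) scale and did not pass (adjusted p = 0.592), and with the culture as a replicate block it was 0.96 ± 0.15 and passed (adjusted p = 0.00333). It also passed, narrowly, in a fit without TNFR2-/- culture 5 (0.96 ± 0.29, adjusted p = 0.0499). The same block gave 0.46 ± 0.15 (adjusted p = 0.0407) for TNFR2-/-, below the fold threshold, with 0.761 as the adjusted p without the block. The interaction of genotype and stimulation for *Gfap* was -0.50 ± 1.32 without the block (adjusted p = 0.968) and -0.50 ± 0.21 with it (adjusted p = 0.235).

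**Figure D2:**
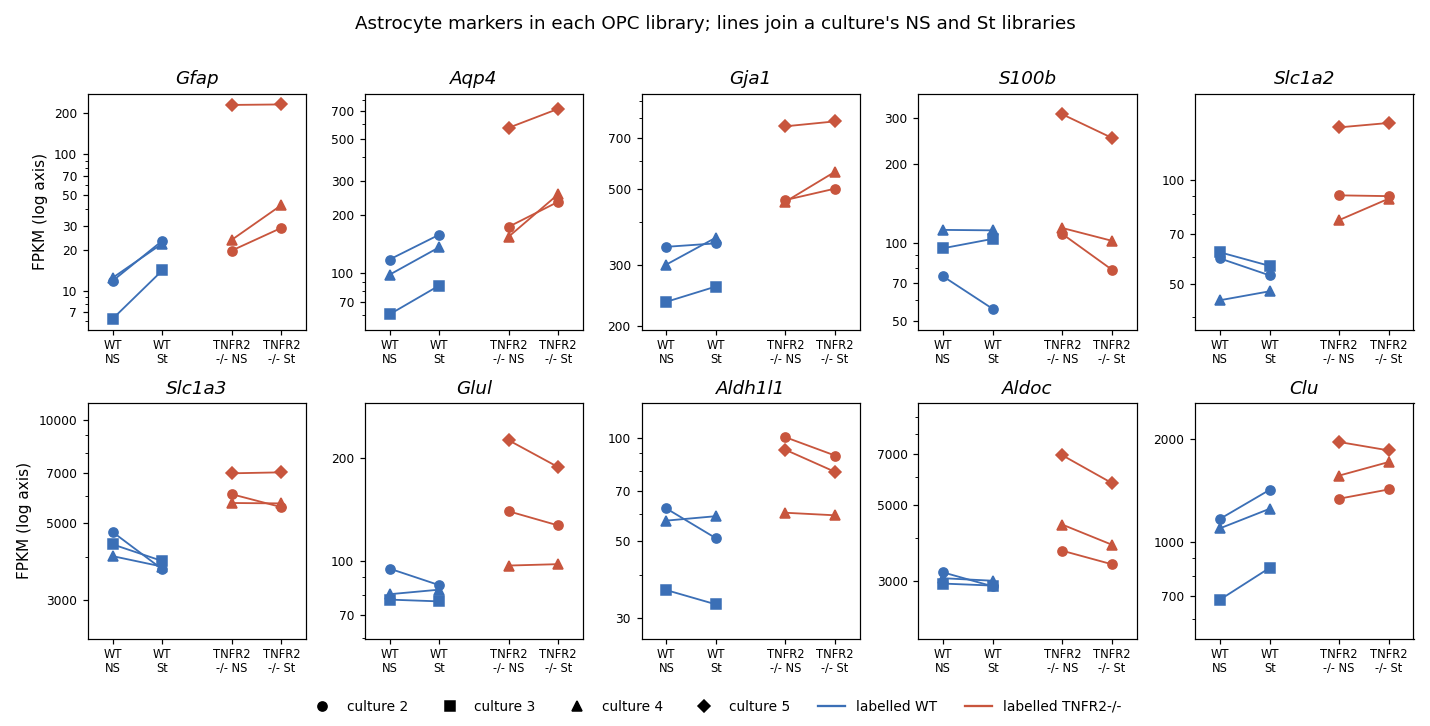
FPKM (log axis, a range of its own for each gene) of the 10 markers in all 12 libraries, with lines that join the NS and St libraries of a culture, blue for the label WT and red for TNFR2-/-. Culture 5 (diamonds) lies highest for 9 markers, with *Aldh1l1* as the exception, and *Gfap* runs from 6.23 to 233 FPKM.

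The channel genes followed a similar order of cultures. *Aqp4* (chr18:15389496-15410982, minus strand) was at 117, 60.6 and 97.7 FPKM in WT NS and at 158, 85.7 and 136 FPKM in WT St. In the libraries labelled TNFR2-/- it was at 174, 154 and 572 FPKM in NS and at 235, 257 and 718 FPKM in St. These lay above every WT library of the same condition, and culture 5 was 3.49-fold (NS) and 2.92-fold (St) above the mean of the other TNFR2-/- cultures. The genotype difference of *Aqp4* on the log2(FPKM + 0.5) scale was 1.48 ± 0.55 in NS (adjusted p = 0.102) and 1.52 ± 0.55 in St (adjusted p = 0.116), and it was 0.88 ± 0.30 (NS, adjusted p = 0.116) and 1.001 ± 0.304 (St, adjusted p = 0.107) without culture 5. Stimulated libraries exceeded their NS counterparts in 6 of 6 cultures, by 1.26- to 1.67-fold. With the culture as a block, the change of *Aqp4* with stimulation was 0.47 ± 0.07 in WT (adjusted p = 0.00371) and 0.50 ± 0.07 in TNFR2-/- (adjusted p = 0.00200), both below the 1.5-fold threshold.

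*Gja1* (chr10:56377330-56402513, plus strand) was at 339, 235 and 301 FPKM in WT NS, and at 463, 458 and 758 FPKM in TNFR2-/- NS. In St it was at 347, 260 and 360.3 FPKM in WT, and at 499.8, 559.5 and 784 FPKM in TNFR2-/-. The genotypes did not overlap in either condition, and culture 5 exceeded the other TNFR2-/- cultures by 1.65-fold in NS and 1.48-fold in St. In NS *Gja1* was the only marker that passed all thresholds, at 0.92 ± 0.24 on the log2(FPKM + 0.5) scale (adjusted p = 0.0370). By limma that call was lost without culture 5 (0.68 ± 0.17, adjusted p = 0.0615). In St the difference was 0.92 ± 0.24 (adjusted p = 0.0506, and 0.0286 with the culture as a random block). Without culture 5 it was 0.73 ± 0.17 in St by limma (adjusted p = 0.0671). By voom on recovered reads without culture 5, *Gja1* passed in NS (0.67 ± 0.16, adjusted p = 0.0298) and in St (0.73 ± 0.15, adjusted p = 0.0290). *Gja1* was higher in St in 6 of 6 cultures, but by no more than 1.22-fold, and its change did not pass with or without the block.

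*S100b* (chr10:76253853-76261159, plus strand) separated culture 5 from all others and did not separate the genotypes. It was at 74.2, 95.2 and 112 FPKM in WT NS and at 108, 114 and 311 FPKM in TNFR2-/- NS. After stimulation it was at 55.7, 103 and 112 FPKM in WT and at 78.8, 102 and 253 FPKM in TNFR2-/-. Cultures 2 and 4 of TNFR2-/- overlapped the WT range, and culture 5 was 2.81-fold and 2.80-fold above their mean in NS and St. The genotype difference was 0.76 ± 0.49 in NS (adjusted p = 0.338) and 0.55 ± 0.49 in St (adjusted p = 0.508) on the log2(FPKM + 0.5) scale, and 0.26 ± 0.29 and 0.05 ± 0.29 without culture 5. The span of *S100b* overlaps that of *Dip2a* on the other strand in the annotation, and whether counting used strand is not given in the sources used here. *Dip2a* had 1787 to 2627 read pairs and *S100b* 730.0 to 4118.

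Of the genes of glutamate uptake, *Slc1a3* varied little within a genotype (coefficients of variation of 2.82% to 13.2% over the 4 groups) and *Slc1a2* more (8.48% to 33.6%). *Slc1a2* (chr2:102658659-102790784, plus strand) was at 59.3, 61.8 and 44.9 FPKM in WT NS and at 90.5, 76.7 and 142 FPKM in TNFR2-/- NS. In St it was at 53.0, 56.4 and 47.6 FPKM in WT and at 90.0, 88.5 and 147 FPKM in TNFR2-/-. *Slc1a3* (chr15:8634124-8710764, minus strand), which gave the most reads of the 10 in every library, was at 4713, 4341 and 4013 FPKM in WT NS and at 6071, 5725 and 6981 FPKM in TNFR2-/- NS. It was at 3676, 3883 and 3741 FPKM in WT St and at 5568, 5709 and 7027 FPKM in TNFR2-/- St. Neither transporter overlapped between genotypes in NS or in St, and culture 5 exceeded cultures 2 and 4 by only 1.18-fold (NS) and 1.246-fold (St) for *Slc1a3*. In St, *Slc1a2* rose by 1.01 ± 0.25 (adjusted p = 0.0451) and *Slc1a3* by 0.69 ± 0.10 (adjusted p = 0.0116) on the log2(FPKM + 0.5) scale in the libraries labelled TNFR2-/- against WT, and both passed. Without culture 5 *Slc1a2* still passed (0.77 ± 0.14, adjusted p = 0.0438), and *Slc1a3*, at 0.58 ± 0.07 (adjusted p = 0.0169), fell just short of the 1.5-fold threshold. In NS *Slc1a2* was at 0.86 ± 0.25 (adjusted p = 0.0502, and 0.0267 with the culture as a random block), and *Slc1a3* at 0.52 ± 0.10 (adjusted p = 0.0194), below the fold threshold. Without culture 5, *Slc1a2* in NS was at 0.60 ± 0.14 by limma (adjusted p = 0.0511). It passed there by voom on recovered reads (0.60 ± 0.13, adjusted p = 0.0229).

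With stimulation, *Slc1a3* was lower in 5 of 6 cultures, and all WT St libraries lay below all WT NS libraries. Its change in WT was -0.21 ± 0.10 on the log2(FPKM + 0.5) scale (adjusted p = 0.232, and 0.0307 with the culture as a block). *Slc1a2* was higher in St in 3 of 6 cultures, with ratios of 0.893 to 1.154. *Glul* (chr1:153899944-153909723, plus strand) was at 95.3, 77.4 and 80.3 FPKM in WT NS, 85.3, 76.5 and 82.7 FPKM in WT St, 139.7, 97.2 and 225 FPKM in TNFR2-/- NS and 127, 98.1 and 188 FPKM in TNFR2-/- St. Its TNFR2-/- libraries lay above all WT libraries of the same condition, with culture 4 closest to WT and culture 5 1.90-fold and 1.67-fold above cultures 2 and 4. The difference of *Glul* did not pass in NS (0.79 ± 0.28, adjusted p = 0.0955) or in St (0.70 ± 0.28, adjusted p = 0.1496).

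**Figure D3:**
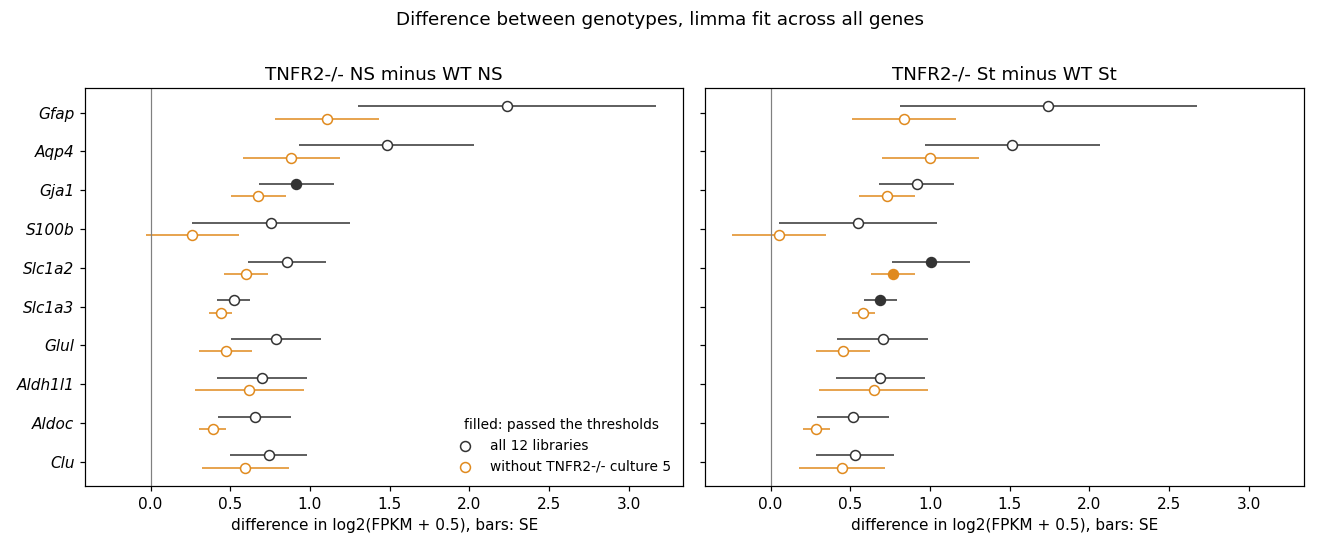
Difference between the libraries labelled TNFR2-/- and WT in log2(FPKM + 0.5), with SE, for each marker in NS (left) and St (right), over all 12 libraries (dark) and without TNFR2-/- culture 5 (orange). Every difference is above 0, filled points (*Gja1* in NS, *Slc1a2* and *Slc1a3* in St) passed the thresholds, and the differences of *Gfap*, *Aqp4* and *S100b* shrink most without culture 5.

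The metabolic genes split in their behavior. *Aldh1l1* (chr6:90486427-90600203, plus strand) was at 62.3, 36.1 and 57.4 FPKM in WT NS and at 100.3, 60.5 and 92.2 FPKM in TNFR2-/- NS, and at 51.1, 32.8 and 59.2 FPKM in WT St against 88.8, 59.5 and 79.6 FPKM in TNFR2-/- St. It was the only marker for which culture 5 was not the highest, and culture 2 took that place in both conditions. *Aldoc* (chr11:78322968-78327781, plus strand) was nearly constant in WT, at 3177, 2948 and 3055 FPKM in NS and 2893, 2908 and 3004 FPKM in St (coefficients of variation of 3.74% and 2.05%). In TNFR2-/- it was at 3672, 4373 and 6952 FPKM in NS and at 3354, 3822 and 5772 FPKM in St. *Aldoc* in culture 5 was 1.73-fold (NS) and 1.61-fold (St) above cultures 2 and 4, and the genotypes did not overlap. The genotype differences were 0.70 ± 0.28 (*Aldh1l1*, adjusted p = 0.126) and 0.65 ± 0.23 (*Aldoc*, adjusted p = 0.0875, and 0.0444 with the culture as a random block) in NS. In St they were 0.69 ± 0.28 (*Aldh1l1*, adjusted p = 0.154) and 0.52 ± 0.23 (*Aldoc*, adjusted p = 0.180). Without culture 5 the spread of *Aldoc* fell, and its difference in NS was 0.39 ± 0.08 (adjusted p = 0.0433), below the fold threshold. *Aldoc* was lower in St in 6 of 6 cultures, by ratios of 0.830 to 0.987, and in TNFR2-/- its change was -0.20 ± 0.04 with the culture as a block (adjusted p = 0.00700), below the fold threshold, against an adjusted p of 0.579 without it.

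*Clu* (chr14:65968483-65981547, plus strand) was at 1171, 682 and 1099 FPKM in WT NS and at 1422, 844 and 1252.5 FPKM in WT St. In TNFR2-/- it was at 1339.9, 1564 and 1958 FPKM in NS and at 1426, 1712 and 1850.4 FPKM in St. The libraries labelled TNFR2-/- lay above WT in both conditions, with the closest St libraries at 1422 and 1426 FPKM. The genotype difference was 0.74 ± 0.24 in NS (adjusted p = 0.0729, and 0.0372 with the culture as a random block) and 0.53 ± 0.24 in St (adjusted p = 0.193). Without culture 5 it was 0.60 ± 0.27 in NS (adjusted p = 0.207) and 0.45 ± 0.27 in St (adjusted p = 0.360). *Clu* was higher in St in 5 of 6 cultures, with culture 5 as the exception at a ratio of 0.945, and in WT its change was 0.26 ± 0.05 with the culture as a block (adjusted p = 0.00721), below the fold threshold, against 0.574 as the adjusted p without it.

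WT culture 3 was the lowest WT culture in both conditions for 6 of the 10 markers (*Gfap*, *Aqp4*, *Gja1*, *Glul*, *Aldh1l1* and *Clu*). The markers of mural cells and fibroblasts, summed, were also lowest in it among WT, at 912 RPM against 1194 and 1757 in NS, and at 828 against 1130 and 1498 in St. That list holds *Cspg4*, also an OPC marker, at 6579 to 13461 read pairs per library, beside *Acta2* at 2007 to 25471. OPC markers were highest in WT culture 3, at 11050.5 against 10225 and 9513 in NS. The part of these in the marker levels was not tested.

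Over the list, all 10 markers were higher in TNFR2-/- NS than in WT NS, and the median difference was 0.77 against 0.04 over all 18081 genes tested, on the log2(FPKM + 0.5) scale. In NS, 1 of 10 passed the thresholds (*Gja1*), against 2.9% of all genes tested, and 4 of 10 did with the culture as a random block (*Gja1*, *Slc1a2*, *Aldoc* and *Clu*), against 3.36% of all genes tested in that fit. Every library labelled TNFR2-/- NS lay above every WT NS library for 8 of 10 (not *Aldh1l1* or *S100b*), against 19.9% of all genes tested. In St, all 10 were higher again, with a median of 0.70 against 0.00 over all genes tested. The St calls were 2 of 10 (*Slc1a2* and *Slc1a3*), against 1.8% of all genes tested, and 3 of 10 with the block, which added *Gja1*, against 2.38% in that fit. The St libraries of the genotypes did not overlap for 9 of 10 (not *S100b*), against 15.4%. Since the markers were selected on earlier results of these libraries, these counts describe them and are not a test of the list. Without culture 5, 0 of 10 passed in NS by limma (7 with an unadjusted p under 0.05) and 1 of 10 in St (*Slc1a2*), against 1.21% and 0.719% of all genes tested, with all 10 differences still above 0 and medians of 0.60 and 0.61.

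Cultures 2 and 4 of TNFR2-/- by themselves averaged above the WT mean for every marker in NS, from 1.18-fold (*S100b*) to 2.13-fold (*Gfap*). Both lay above every WT culture for 8 of 10 markers in NS (not *Aldh1l1* or *S100b*), against 24% of all genes tested, and for 9 of 10 in St (not *S100b*), against 19%. For *S100b* in St their mean was 1.0002 times that of WT.

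With stimulation, 0 of 10 markers passed in WT, where 7.53% of all genes tested did, and 0 of 10 passed in TNFR2-/-, where 10.1% did. By limma, 0 of 10 had an unadjusted p under 0.05 in either comparison, and voom on recovered reads also passed 0. With the culture as a block, 1 of 10 passed in WT (*Gfap*), against 8.79% of all genes tested, and 0 of 10 in TNFR2-/-, against 11.3%. An adjusted p of at most 0.05 was reached in that fit by 4 of 10 in WT and 3 of 10 in TNFR2-/-, against 31.6% and 45.1% of all genes tested. Without culture 5, 1 of 10 passed in WT (*Gfap*), against 8.09%, and 0 of 10 in TNFR2-/-, against 9.31%. Median changes were -0.05 in WT, also -0.05 over all genes tested, and 0.00 in TNFR2-/-, against -0.11 over all genes tested. Within cultures, 3 of 10 markers were higher in St in all 6 cultures (*Gfap*, *Aqp4* and *Gja1*), as were 13.2% of all genes tested, and 1 of 10 was lower in all 6 (*Aldoc*), as were 29.6%. For the interaction, 0 of 10 passed by limma, against 0.00553% of all genes tested (1 gene), and 0 passed with the block or by voom. An unadjusted p under 0.05 for the interaction was reached by 0 of 10 without the block and 2 of 10 with it. These comparisons share libraries (WT NS is in both the WT response and the NS genotype difference), so they are not independent of each other.

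**Figure D4:**
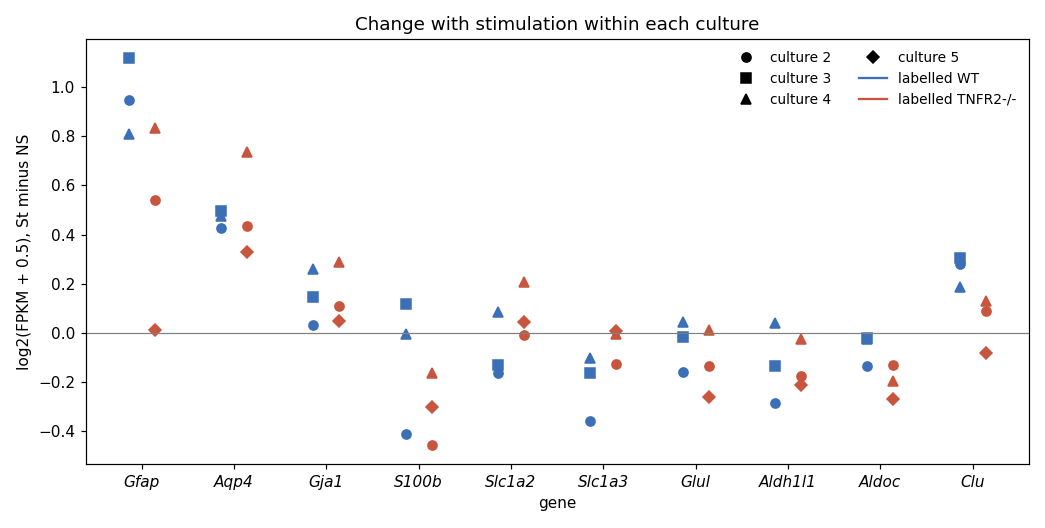
Change in log2(FPKM + 0.5) from NS to St within each of 6 cultures, for each marker. All 6 points lie above 0 for *Gfap*, *Aqp4* and *Gja1* and below 0 for *Aldoc*, and *Gfap* runs from 0.01 in TNFR2-/- culture 5 to 1.12 in WT culture 3.

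TNFR2-/- culture 5 was the highest of the 6 cultures in both conditions for 9 of the 10 markers, but by very unequal amounts. It was over 2-fold above both other TNFR2-/- cultures, in NS and in St, for 3 of 10 (*Gfap*, *Aqp4* and *S100b*), against 0.413% of the 13554 genes that averaged 1 FPKM or more (56 genes). The next were *Glul* (1.90-fold in NS), *Aldoc* (1.73-fold) and *Slc1a2* (1.71-fold), and the smallest ratio was that of *Aldh1l1* (1.146-fold in NS and 1.07-fold in St). Ordered by the smaller of the NS and St ratios, *Gfap* was the first of the 56. Named after their values were seen, the following places were held by *Enpp6* (5.33-fold in NS with 0.5 FPKM added, 5.12-fold in St), which marks newly forming oligodendrocytes, by *Fam187a*, *Gng4* and *Neu4*, and, further down, by *Gpr17* (3.37-fold and 3.42-fold), a receptor of OPCs committed to differentiate. In the opposite direction, 16 genes were over 2-fold below both other cultures. *Fam187a* and *Ccdc103*, also among the 56, lie 605 and 2120 bases from *Gfap* on the other strand and had at most 39 and 83 read pairs per library, with *Fam187a* at 0 in TNFR2-/- NS culture 4.

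Other astrocyte genes shifted less in culture 5 than *Gfap* did, and those named here were picked after their values were seen. Of 28 listed, 1 was past 2-fold in both conditions (*Cldn10*, 2.25-fold and 2.27-fold with 0.5 FPKM added), and *Apoe* was 2.26-fold and 2.17-fold above the mean of cultures 2 and 4. *Sox9*, the transcription factor that marks astrocytes and their progenitors, was at 0.867 and 0.872 of that mean, and *Mlc1* at 1.05 and 1.03. Medians of the log2 ratio were taken over genes that averaged 1 FPKM or more. They were 0.31 (NS) and 0.24 (St) over 26 of the 28, and 0.78 and 0.70 over the 10 markers. Over 11 of the 12 OPC markers they were -0.03 and 0.07, and over all 13554 genes 0.03 and 0.02. Markers of mature oligodendrocytes summed to 1476 RPM in culture 5 NS against 813 and 1015 in cultures 2 and 4. Markers of mural cells and fibroblasts, with the OPC marker *Cspg4* among them, summed to 546 against 1152 and 856 RPM in the same libraries. The part of these in the marker levels was not tested.

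**Figure D5:**
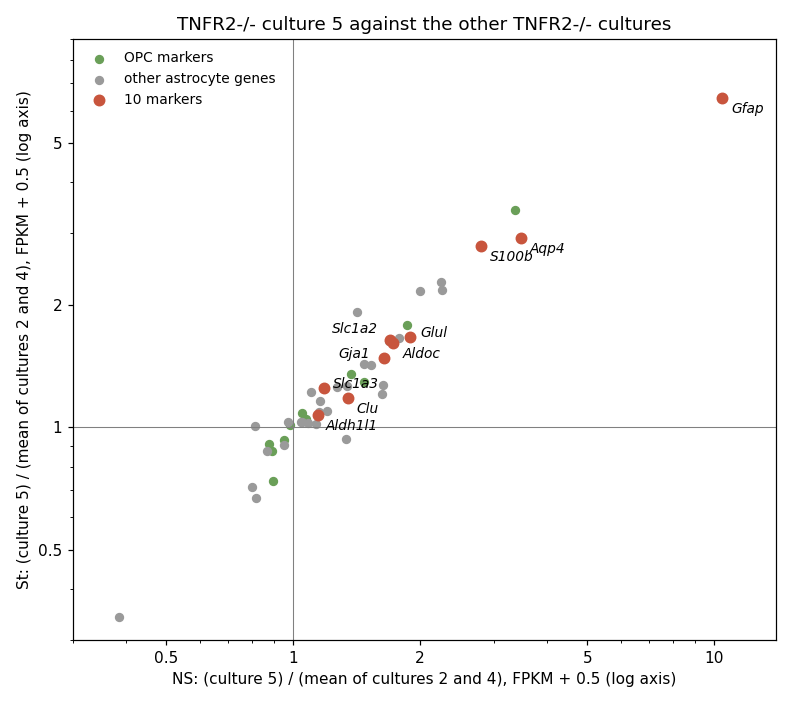
Ratio of TNFR2-/- culture 5 to the mean of TNFR2-/- cultures 2 and 4 in NS (x axis) and St (y axis), both as FPKM + 0.5 on log axes, for the 10 markers (red, named), 28 other astrocyte genes (grey) and the 12 OPC markers except *Olig2* (green). *Gfap* lies apart from the rest at the upper right, and most other astrocyte genes and OPC markers lie near 1 on both axes.

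The wider astrocyte list moved with the label as well. Of 28 other astrocyte genes, 27 were tested, and their summed level was 5437 to 6345 RPM in WT NS, 8302 to 11217 in TNFR2-/- NS, 5220 to 5511 in WT St and 7789 to 10295 in TNFR2-/- St, with no overlap between genotypes. In NS 7 of 27 rose and 0 fell in TNFR2-/-, against 2.9% of all genes tested that passed. The median was 0.49, and 6 rose without culture 5, against 1.21% of all genes tested. In St 7 of 27 rose and 0 fell, against 1.8% of all genes tested, with a median of 0.59. Without culture 5, 4 of the 27 rose, against 0.719% of all genes tested. Among them, *Pla2g7*, a secreted phospholipase, rose by 1.151 ± 0.153 (adjusted p = 0.00727) and *Atp1b2*, the sodium pump subunit of glia, by 0.70 ± 0.10 (adjusted p = 0.00973) in NS. The bicarbonate transporter gene *Slc4a4* rose by 0.73 ± 0.10 in St (adjusted p = 0.00994). Stimulation went the other way for this list, with 5 of 27 falling and 0 rising in WT and 4 falling and 1 rising in TNFR2-/-. The shares of all genes tested that passed with stimulation were 7.53% in WT and 10.1% in TNFR2-/-. *Hepacam*, which encodes an adhesion molecule of astrocyte junctions, fell by 0.61 ± 0.09 in both genotypes (adjusted p = 0.000612 in WT and 0.000465 in TNFR2-/-, the latter not called without culture 5), and the growth factor receptor *Fgfr3* fell by 0.94 ± 0.18 in WT (adjusted p = 0.00427).

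Lists known from reactive astrocytes gave many calls with stimulation, by which 7.53% of all genes tested passed in WT and 10.1% in TNFR2-/-. In the St against NS comparisons, 9 of 12 genes of the list shared by reactive states rose in WT and 9 of 12 in TNFR2-/-, as did 8 of 12 and 8 of 12 of the list linked to lipopolysaccharide and 7 of 12 and 8 of 12 of the list linked to ischemia, and none fell by limma. *Cxcl10*, a chemokine induced by interferon, went from 1.60 ± 0.66 to 2408 ± 269 FPKM in WT. *Lcn2*, which encodes lipocalin 2, went from 0.107 ± 0.026 to 13.5 ± 2.27 FPKM. *Gbp2* and *Iigp1*, both induced by interferon, rose by 9.22 ± 0.26 (adjusted p = 4.70e-09) and 8.92 ± 0.29 (adjusted p = 9.04e-09) on the log2(FPKM + 0.5) scale. Many of these genes are induced by interferon or TNF in most cell types. Between genotypes, 2.9% (NS) and 1.8% (St) of all genes tested passed. Of the lists' members, 2, 0 and 1 rose in NS, 2, 1 and 1 rose in St, and *Gbp2* fell in St. Without culture 5, the counts were 1, 0 and 2 in NS (1.21% of all genes tested) and 1, 1 and 0 in St (0.719%). The call of *Gbp2* was lost.

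Among 26 genes of signals that set astrocyte fate, 3 rose in TNFR2-/- NS (*Bmpr1b*, *Id1* and *Id3*, a receptor and targets of BMP signaling) and 1 in St (*Bmpr1b*, by 1.62 ± 0.24, adjusted p = 0.0110). The shares of all genes tested that passed were 2.9% in NS and 1.8% in St. Without culture 5 the call of *Id1* in NS was lost. Stimulation raised 9 and lowered 2 of the 26 in WT, where 7.53% of all genes tested passed. In TNFR2-/-, where 10.1% passed, it raised 8 and lowered 4. *Stat3* rose by 1.73 ± 0.07 in WT (adjusted p = 4.60e-08) and 1.55 ± 0.07 in TNFR2-/- (adjusted p = 8.21e-08), and *Lif*, a cytokine that signals through STAT3, rose by 4.07 ± 0.31 and 5.02 ± 0.31.

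Genes that share a function with the markers were counted against the 2.9% (NS) and 1.8% (St) of all genes tested that passed between genotypes. With stimulation, 7.53% of all genes tested passed in WT and 10.1% in TNFR2-/-. Of 14 tested for glutamate and glutamine handling, 2 rose and 1 fell in TNFR2-/- NS and 3 rose and 1 fell in St, and *Slc38a2*, a glutamine carrier, fell by 0.997 ± 0.180 in NS (adjusted p = 0.0161). Without culture 5, 0 rose in NS and 2 in St. Of 13 gap junction and water channel genes, *Gjb2* (connexin 26) rose in TNFR2-/- in both conditions, by 1.23 ± 0.30 in NS (adjusted p = 0.0330), and neither call was made without culture 5, and 3 of 13 rose with stimulation in each genotype. Of 13 S100 and filament genes, 0 passed between genotypes by limma (3 in NS and 1 in St had an unadjusted p under 0.05), and with stimulation *Lmna*, a lamin gene, rose in both genotypes. Of 8 aldolase and aldehyde dehydrogenase genes, 0 passed between genotypes by limma (3 and 3 with an unadjusted p under 0.05), and 0 and 1 rose with stimulation in WT and TNFR2-/-.

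Markers of other cells that the cultures could hold were compared on summed levels. Over all genes tested, 2.9% passed between genotypes in NS and 1.8% in St, and 1.21% and 0.719% without culture 5. Of 12 OPC markers, 0 passed between genotypes in NS by limma (4 with an unadjusted p under 0.05) and 2 fell in St (*Pdgfra* and *Lhfpl3*), both calls lost without culture 5, and their sum was 9513 to 11050.5 RPM in WT NS and 9590 to 10380 in TNFR2-/- NS. With stimulation *Olig2* fell in both genotypes. Mature oligodendrocyte markers ran from 649 to 1167 RPM in WT NS and from 813 to 1476 in TNFR2-/- NS, neuron markers from 912 to 1006 and from 797 to 814, and markers of mural cells and fibroblasts from 912 to 1757 and from 546 to 1152. The mural and fibroblast list shares *Cspg4* with the OPC markers. Microglia markers took 9.94 to 13.1 RPM in every library, with 4 to 8 of 12 at 0, *Fcrls* at 0 in every library and *Cx3cr1* at no more than 2 read pairs. Endothelial markers took 35.4 to 76.2 RPM and ependymal markers 10.8 to 30.1, with *Tmem212* at 0 throughout. None of the 12 mature oligodendrocyte, 11 neuron, 11 mural and fibroblast, 2 microglia and 4 ependymal markers tested passed between genotypes in NS or St by limma, with 1, 4, 2, 0 and 0 at an unadjusted p under 0.05 in NS and 0, 1, 4, 0 and 1 in St, and 1 of 6 endothelial markers fell in St, a call lost without culture 5. The summed neuron markers were lower in TNFR2-/- NS than in WT NS without overlap, and the part of this in the marker levels was not tested. Within that sum *Map2* had 16362 to 22435 read pairs per library, against 37 to 112 for *Rbfox3* and 2 to 11 for *Slc17a7*.

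How the 10 markers varied together depended on culture 5. After group means were removed, all 45 pairs of markers correlated above 0 over the 12 libraries, with a median Pearson's r of 0.74 and a range of 0.04 (*Aldh1l1* with *S100b*) to 0.97 (*Aqp4* with *Gja1*). Over the 10 libraries without culture 5, 25 of 45 were above 0, with a median of 0.05 and a range of -0.68 (*Aldoc* with *Glul*) to 0.97 (*Gfap* with *Clu*). *Aqp4* and *Gja1* stayed together (0.96), and *Gfap* and *Aqp4* were at 0.87, whereas *Gfap* and *Slc1a2* went from 0.78 to -0.64. These are descriptions over few cultures, in which NS and St libraries of a culture are not independent.

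Genes whose deviations were most like those of each marker over the 12 libraries were mostly not astrocyte markers. For *Gfap* they were *Zmpste24* (r = 0.98), *AW554918*, *Gabrb1*, *Fam53b* and *Eps15*, with values of 0.91, 0.76, 0.79, 0.72 and 0.75 without culture 5. For *Aqp4* they were *Lgmn*, *Slc30a9* and *Slc13a3*, and for *Gja1* *Lgmn* (r = 0.993, and 0.997 without culture 5), *Htra1* and *Apeh*. For *Aldh1l1* they were *Mlc1* (r = 0.99 with and without culture 5), *Notch2* and *Csrp1*, and *Mlc1* encodes a membrane protein of astrocyte endfeet. For *S100b* they were *3110035E14Rik*, *Rnd2* and *Sirt2*, for *Clu* *Plec*, *Ldhd* and *Uba3*, and for *Aldoc* *Ddit4*, *Plekhb1* and *Glud1*. For *Slc1a2* they were *Epg5*, *Tmem106b* and *D430019H16Rik*, for *Slc1a3* *Setd1b*, *Natd1* and *Zfp882*, and for *Glul* *Orc5*, *Srek1ip1* and *Mrm1*. The r values of these nearest genes ran from 0.968 to 0.998 over 12 libraries.

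Sequence shared with other genes was short. Of the 10 markers, 8 held no sequence of 100 bases found in the transcripts of another gene, *Glul* shared 1.77% of its sequences with *Glns-ps1*, and *Aldh1l1* shared 0.128% with *Gm45901*. On the other strand *Gfap* overlaps *Gm26668*, which had 13 to 33 read pairs per library.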

How the data were processed

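RNA from 12 mouse OPC cultures was sequenced. Trimming (Trim Galore), alignment to GRCm38, counting of read pairs (STAR) and calls of their own (edgeR) were done by the authors, who deposited FPKM, in separate tables for NS and St. Each table had 45792 entries, of which 229 with a repeated symbol were left out. The deposited FPKM of 26636 genes above 0 in at least 2 libraries were all whole multiples of 1 read (tolerance 0.001 reads), which gave read counts. Divisors did not follow annotated exon length (Spearman 0.01 over 16010 genes), so lengths came from GENCODE M21, and lists were summed as recovered reads per 1000000 read pairs (RPM).

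The 12 libraries were fitted together in limma 3.58.1 (R 4.3.3), with 1 mean per group (4 groups) and a prior trend, on log2(FPKM + 0.5) of the 18081 genes that averaged 0.1 FPKM or more. A gene passed with an adjusted p (Benjamini-Hochberg, over all genes tested) of at most 0.05, a change of 1.5-fold or more and an average of 1 FPKM or more. The script was tested on simulated data. Python 3.11.15, numpy 2.4.6, pandas 2.3.3 and matplotlib 3.10.9 did the rest.

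After group means were removed, same-numbered NS and St libraries of a genotype correlated at 0.34 to 0.65 (6 pairs, 13554 genes), and other numbers at -0.45 to 0.09. The pairing thus comes from the labels' numbers and the data, within a genotype. The blocked fit took the culture as a fixed block for stimulation and as a random block for genotype. Fits without the block took the NS and St libraries of a culture as independent of each other.

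The members and lists were chosen with earlier results of these data known. Genes named were the 10 markers, up to 4 genes of each list with the smallest adjusted p in a comparison, and for *Gfap* 5 and each other marker 3 genes of highest correlation. Some others, among them *Cldn10*, *Apoe*, *Sox9* and *Mlc1* in the comparison of culture 5, were named after their values were seen. Alternatives were pseudocounts, filters, scalings, voom on recovered reads, blocks, each library left out, and, chosen after seeing the data, fits without TNFR2-/- culture 5.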

Additional observations from a re-analysis of the deposited data

How the results depend on the processing

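The direction of all 10 genotype differences held under every setting tried, in NS and in St. The number of markers that passed in NS (1) was 0 with no filter on low values and with only the 6 libraries compared, 2 with a filter of at least 1 FPKM, with voom on recovered reads and with no fold threshold, 4 with a replicate block within genotype and 3 with a replicate block across genotypes. It was 0 by limma without TNFR2-/- culture 5 and 3 (*Gfap*, *Gja1* and *Slc1a2*) by voom without that culture. It was 0 to 3 when 1 library was left out (0 without WT NS 3 or 4, TNFR2-/- NS 2 or 5, or WT St 2 or 4, 2 without TNFR2-/- St 5 and 3 without TNFR2-/- NS 4). The number in St (2) was 3 with a pseudocount of 1, a filter of at least 1 FPKM, median-of-ratios scaling, voom on recovered reads and either replicate block. It was 1 with no filter, without the trend and without culture 5, 0 with only the 6 libraries compared, and 0 to 3 when 1 library was left out, with 3 without TNFR2-/- NS 4 or 5, 0 without WT St 4 or TNFR2-/- St 5 and 1 without any WT NS library, TNFR2-/- NS 2, WT St 2 or 3 or TNFR2-/- St 2. The WT response (0) was 1 (*Gfap*) with either replicate block and, without culture 5, by limma and by voom. The cause of these shifts was not tested. The TNFR2-/- response and the interaction stayed at 0 throughout. Changes with stimulation that were near 0 changed sign in 10 of 260 values in WT and 20 of 260 in TNFR2-/-, and interaction values in 34 of 250. Across genotypes, same-numbered libraries of a condition (4 pairs) correlated at 0.14 (NS) and 0.20 (St) for number 2. For number 4 the values were -0.03 (NS) and -0.06 (St). Whether cultures of the same number shared a preparation was not tested.

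Groups held 3 cultures, and the markers with the largest differences in NS also had the largest SE (0.93 for *Gfap* and 0.55 for *Aqp4*). None of the 10 markers had a count of 0 in any library. Other pseudocounts and scalings left the count in NS at 1.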
